A study of Homo sapiens with 4 samples.

Results

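The insulin-like growth factor (IGF) axis was followed through 10 genes chosen by name, out of 60617 gene entries in the count table: the ligand gene IGF1, the receptor genes IGF1R and IGF2R, the adaptor genes IRS1 and IRS2, and the binding protein genes IGFBP2, IGFBP3, IGFBP4, IGFBP5 and IGFBP6. Each was matched by symbol to its Ensembl identifier, and 10 of 10 were found. RNA was sequenced from SKNMC, an established human Ewing sarcoma cell line, after 24 h in 1 µM CBL0137 (2 libraries) or in its vehicle DMSO (2 libraries). CBL0137 is a curaxin, a DNA-binding small molecule that traps the histone chaperone FACT on chromatin, and inhibiting FACT in this tumour is the subject of the series. Both groups were grown in the same medium with fetal bovine serum, and the results are those of a single line. Whether libraries sharing a condition were grown as separate cultures is not stated, and p-values therefore reflect the spread among these 4 libraries only, which may be technical.

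IGF1 and its relative IGF2 are secreted peptides that activate the receptor tyrosine kinase IGF1R. The activated receptor phosphorylates the docking proteins IRS1 and IRS2, which recruit phosphatidylinositol 3-kinase (PI3K) and so switch on AKT. IGF2R carries no kinase and removes IGF2 from the cell surface, and the binding proteins hold IGFs outside the cell and either block or prolong their action. In Ewing sarcoma the axis is known for autocrine IGF1 and for dependence on IGF1R, and IGFBP3 is known as a gene held down by the EWSR1-FLI1 fusion.

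With CBL0137 the ligand and both adaptors fell and a pair of binding proteins rose. IRS1 had a log2 fold change of -1.57 (SE 0.07), IRS2 of -1.16 (SE 0.05) and IGF1 of -0.91 (SE 0.10), whereas IGFBP5 was at 1.14 (SE 0.05) and IGFBP3 at 3.48 (SE 0.44). Calls required a fold above 1.5 together with a Benjamini-Hochberg adjusted p under 0.05 in edgeR's quasi-likelihood test. By that rule 3 of the 10 genes fell, 2 rose and 5 were not called. Of those that rose, IGFBP3 passed the filter on low counts through the CBL0137 libraries alone and so could be called in that direction only. Over the 17374 genes tested, 33.4% were called, 18.2% higher and 15.1% lower, so a count of 5 among 10 says little about the axis as such. The split over all genes was 3166 higher and 2632 lower, and 4138 and 1877 with library size alone. Adjusted p was under 0.05 for 10 of the 10 genes, IGFBP3 included, with 6 higher and 4 lower, and for 61.7% of tested genes. IGF1R, IGFBP2 and IGFBP6 did not keep it under some alternatives, given with each gene. The median log2 fold change of the 10 genes, IGFBP3 included, was 0.37, against 0.01 over the tested genes. It lay between IGFBP2 (0.20) and IGFBP4 (0.53), which were at 0.01 and 0.19 with the GC trend described below removed. A median of 10 genes that run in both directions says little about the axis as such. The CPM values of the groups did not overlap for any of the 10, as was so for 79.9% of tested genes.

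The libraries held 19625517 to 21061892 reads assigned to genes. The share of reads outside annotated genes was 8.52% to 8.82% with DMSO and 10.2% to 10.3% with CBL0137. Levels are given as CPM (reads of a gene over all reads of its library, scaled to a common total with TMM factors). In these bulk samples fewer cells of a type and less RNA per cell cannot be told apart. Of 7 Ewing sarcoma markers 7 were at 1 CPM or more in every library, with summed levels of 1809 to 1820.1 CPM with DMSO and 1005 to 1098 CPM with CBL0137. CCND1 made up most of that sum, at 1158 and 1144 CPM with DMSO and 527 and 574 CPM with CBL0137. By gene 3 were called lower (CD99, NR0B1 and CCND1) and 0 higher. NKX2-2 and LIPI, not called, had log2 fold changes of 0.23 and 0.35. Of the 4 blood cell markers CD3E had at most 1 read in a library and CD14 at most 11, while PTPRC stood at 107 to 162 CPM. The 6 fibroblast markers summed to 1308 to 1321 CPM with DMSO and 1563 to 1567 CPM with CBL0137, with COL1A1 higher, LUM lower and the other 4 not called. COL1A1 went from 127 and 119 CPM with DMSO to 471 and 441 CPM with CBL0137. The log2 fold changes of those not called were -0.52 for DCN, -0.16 for COL3A1, 0.03 for COL1A2 and 0.44 for PDGFRB. The 4 endothelial markers summed to at most 4.79 CPM. The 5 epithelial markers, none at 0 reads throughout, summed to 51.5 and 52.0 CPM with DMSO and to 114 and 115 CPM with CBL0137, and 4 of the 4 tested rose. KRT18 made up most of that sum, at 45.8 and 46.6 CPM with DMSO and 99.3 and 97.3 CPM with CBL0137. The part of these shifts in the results below was not tested.

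**Figure D1:**
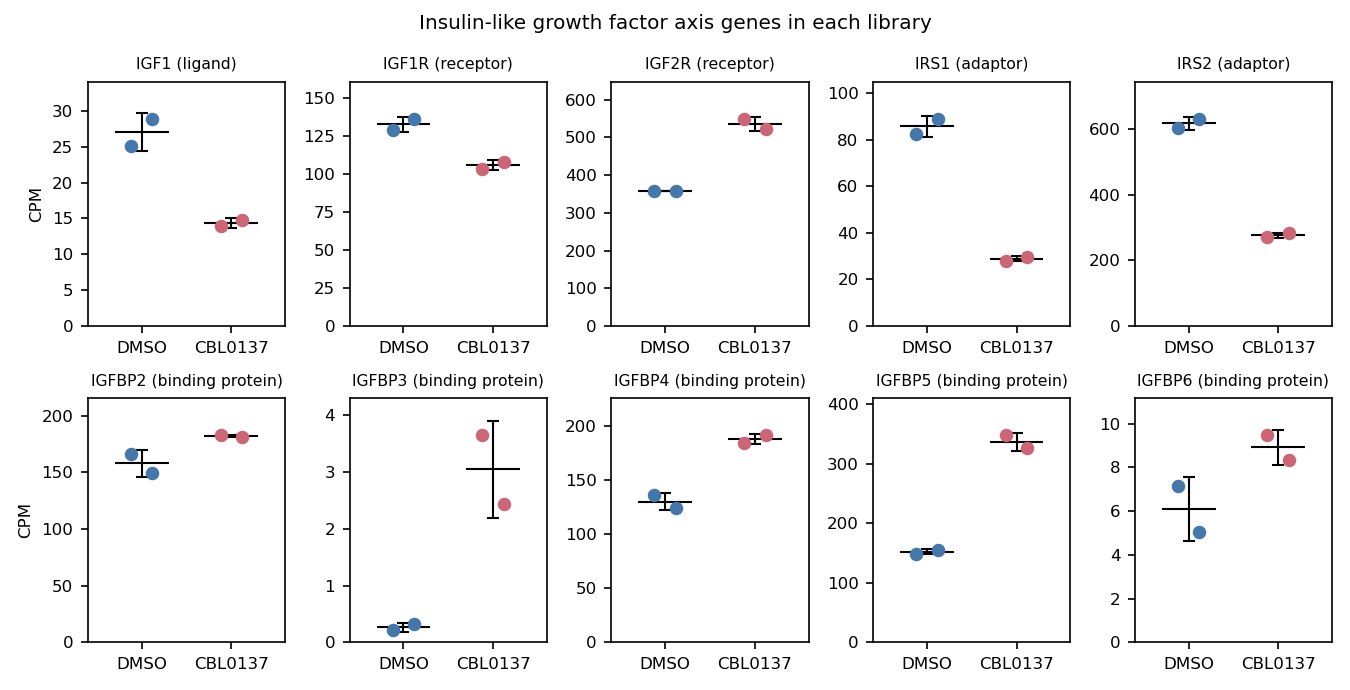
Level of each IGF axis gene in each library, in CPM on a linear axis starting at 0. Points are libraries, horizontal lines the mean and error bars the SD (n = 2): IGF1, IGF1R, IRS1 and IRS2 are lower in both CBL0137 libraries and the other 6 genes are higher.

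To set promoter sequence beside the expression values, the start regions of the 10 genes were searched for 6 short motifs, each on both strands, none of which contains another. RefSeq promoter windows (build GRCh38.p14), running from 250 bases before to 50 bases after a start site, were present for 10 of the 10 genes, as 13 windows. They are shown 5′ to 3′ on the gene's strand for 4 genes: IGF2R, whose window stood out in the motif counts, the adaptors IRS1 and IRS2, which fell together, and IGFBP3, whose log2 fold change was the highest of the 10. Capitals mark CACGTG, the E-box, in IGF2R (chr6:159968832-159969131, plus strand) and IRS1 (chr2:226799771-226800070, minus strand). They mark CCAAT or its reverse complement in IRS2 (chr13:109786534-109786833, minus strand), and GGGCGG, the GC box, or its reverse complement in IGFBP3 (chr7:45921223-45921522, minus strand).
IGF2R: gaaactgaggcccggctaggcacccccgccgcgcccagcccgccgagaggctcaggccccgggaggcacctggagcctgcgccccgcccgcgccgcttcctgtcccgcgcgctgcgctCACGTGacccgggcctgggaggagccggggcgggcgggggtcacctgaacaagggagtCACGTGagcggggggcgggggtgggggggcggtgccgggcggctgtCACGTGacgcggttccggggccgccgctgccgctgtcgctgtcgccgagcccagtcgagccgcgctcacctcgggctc
IRS1: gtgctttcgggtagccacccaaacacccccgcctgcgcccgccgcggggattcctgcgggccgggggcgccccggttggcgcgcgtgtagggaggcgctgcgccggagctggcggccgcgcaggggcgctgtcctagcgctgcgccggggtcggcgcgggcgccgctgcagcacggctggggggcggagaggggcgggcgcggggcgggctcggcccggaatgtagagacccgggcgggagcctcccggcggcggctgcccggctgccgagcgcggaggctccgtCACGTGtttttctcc
IRS2: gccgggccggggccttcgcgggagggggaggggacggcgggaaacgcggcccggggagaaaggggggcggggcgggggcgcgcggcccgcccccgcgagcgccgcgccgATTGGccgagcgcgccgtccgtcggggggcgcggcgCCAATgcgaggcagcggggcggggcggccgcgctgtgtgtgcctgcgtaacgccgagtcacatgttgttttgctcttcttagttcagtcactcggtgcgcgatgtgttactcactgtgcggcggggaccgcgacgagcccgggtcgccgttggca
IGFBP3: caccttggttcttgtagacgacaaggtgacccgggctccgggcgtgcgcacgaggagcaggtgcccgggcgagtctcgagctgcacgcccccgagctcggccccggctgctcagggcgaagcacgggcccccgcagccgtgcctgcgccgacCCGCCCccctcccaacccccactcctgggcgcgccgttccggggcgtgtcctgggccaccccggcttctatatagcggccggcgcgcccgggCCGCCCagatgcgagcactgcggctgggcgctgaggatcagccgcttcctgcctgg

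The IGF2R window held CACGTG 3 times, beginning 132, 74 and 28 bases before the start site. Of 35116 promoter windows of the same length 33 (0.0940%) held it at least 3 times and 7.26% at least once. Among windows of tested genes 0.153% held it at least 3 times. The IGF2R window, picked after 6 motifs had been searched, had 78.7% GC, against a median of 58.7% over all windows. The part of GC content in its motif counts was not tested. The IRS1 window held CACGTG once, and the other 11 windows of the 10 genes did not hold these letters. IGF2R was higher and IRS1 lower with CBL0137, and across the series the letters lay in 9.37% of windows of genes that rose, 9.06% of those of genes that fell and 9.22% of those of all tested genes. GC boxes numbered 6 in the IGF2R window, 5 in that of IRS2, 4 in that of IRS1 and 2 in that of IGFBP3, and 24.8% of windows of tested genes held at least 3 and 64.1% at least 1. The TATA letters TATAAA lay in 1 of the 13 windows, that of IGFBP4, 29 bases before the start site. They lay in 11.5% of all windows and 6.70% of those of tested genes. The tandem ETS core GGAAGGAA lay in 0 of the 13, in 3.67% of all windows and in 3.53% of those of tested genes. The forkhead letters GTAAACA, the core bound by FOXO factors, lay in an IGF1 window and in that of IGFBP6. They lay in 3.42% of all windows and 2.7% of those of tested genes. CCAAT lay in 2 of the 13 windows, those of IRS2 and IGFBP2, in 34.6% of all windows and in 34.4% of those of tested genes. A match is a description of letters, not of binding.

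The adaptor genes showed the lowest log2 fold changes of the 10. IRS1 (ENSG00000169047, GRCh37 chromosome 2, 227596028 to 227664536, minus strand) encodes the first-described substrate of the insulin and IGF1 receptors. Its level was 82.6 and 89.0 CPM in DMSO and 28.1 and 29.5 CPM in CBL0137. Both treated libraries thus lay near a mean of 28.8 ± 1.03 CPM against 85.8 ± 4.52 CPM (SD, n = 2), and the groups stood far apart relative to their spread. The vehicle level was 2.98 times the treated level (edgeR adjusted p = 3.3e-22), and 2.86% of tested genes had a lower log2 fold change.

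IRS2 (ENSG00000185950, chromosome 13, 110405042 to 110438930, minus strand) encodes the second widely expressed docking protein of this family. Its level was 604 and 632 CPM with DMSO and 271 and 283 CPM with CBL0137. Its vehicle level was 2.23 times the treated level (edgeR adjusted p = 4.4e-22). Per kilobase of annotated exon, IRS2 stood at 8.97 and 8.72 times the level of IRS1 with DMSO and at 11.8 times in both CBL0137 libraries. The proportion of the adaptors therefore shifted toward IRS2 while both fell. Neither call was lost under any of the 14 alternatives computed for them, where IRS1 ranged from -1.64 to -1.09. IRS4, a further docking protein gene, had 0 reads in both DMSO libraries and 3 and 2 reads with CBL0137, too few to test.

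The ligand gene IGF1 (ENSG00000017427, chromosome 12, 102789652 to 102875522, minus strand) gave 25.2 and 28.9 CPM with DMSO but 13.9 and 14.8 CPM with CBL0137. Both treated libraries lay below both vehicle libraries, with means of 14.3 ± 0.659 and 27.0 ± 2.64 CPM (SD, n = 2; edgeR adjusted p = 3.6e-10). The size of the fall depended on the measure. The authors' FPKM values were 16.7 and 19.1 with DMSO and 12.4 and 14.2 with CBL0137, a difference of -0.40 in log2(FPKM + 1) that stayed under the fold limit (limma adjusted p = 0.041). An exon of IGF1 overlaps an exon of the long non-coding RNA gene HELLPAR on the opposite strand. HELLPAR had 228 and 214 reads with DMSO and 380 and 380 with CBL0137, and reads of such a pair cannot be told apart with certainty where the strand setting is not stated. Of the other ligand genes, IGF2 had 0 reads in both DMSO libraries and 1 and 0 with CBL0137, and INS had 0 in 4 of 4. Exons of both genes overlap those of INS-IGF2 on the same strand, where reads can be left out as ambiguous, so these counts set no upper limit on their levels. In the authors' FPKM, IGF2 was at 0.023 and 0.0096 with DMSO and at 0.083 and 0.026 with CBL0137. INS was at 0 FPKM in 4 of 4.

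The receptor genes differed between the groups in opposite directions, each by less than the fold limit. IGF1R (ENSG00000140443, chromosome 15, 99191768 to 99507759, plus strand), the signalling receptor, was at 129 and 136 CPM with DMSO and 103.5 and 108 CPM with CBL0137. The difference was larger than the spread within groups, at -0.33 on the log2 scale (SE 0.06; adjusted p = 3.1e-06 by edgeR), and was -0.17 with library size alone. On both FPKM scales its adjusted p by limma was above 0.05 (0.199 and 0.181). INSR, the insulin receptor gene, was at 73.7 ± 1.78 CPM with DMSO and 66.5 ± 0.0119 CPM with CBL0137 (log2 fold change -0.15, SE 0.06), and its sign turned with library size alone (0.01). Per kilobase IGF1R stood at 1.40 ± 0.0203 times INSR with DMSO and 1.24 ± 0.0384 times with CBL0137.

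IGF2R (ENSG00000197081, chromosome 6, 160390114 to 160534539, plus strand), which is also the mannose 6-phosphate receptor that sorts enzymes to lysosomes, had the highest level per kilobase of IGF1R, IGF2R and INSR in each library. It stood at 359 and 358 CPM with DMSO and at 549.5 and 524 CPM with CBL0137. The treated libraries lay 49.9% above the vehicle mean, and the fitted fold of 1.499 fell just short of the limit of 1.5 (log2 fold change 0.58, SE 0.05, edgeR adjusted p = 6.1e-13). Its exons overlap those of CHP1P2, a pseudogene on the same strand with 62 and 57 reads with DMSO and 238 and 211 with CBL0137. IGF2R passed the limit with upper-quartile factors (0.65), library size alone (0.74), the stricter filter (0.60) or without CBL0137 replicate 2 (0.61). Per kilobase IGF2R stood at 1.71 and 1.62 times the level of IGF1R with DMSO and at 3.27 and 2.99 times with CBL0137.

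The 5 binding protein genes were higher in both CBL0137 libraries than in both DMSO libraries, and 2 of the 5 passed the fold limit. Over all tested genes the groups did not overlap for 79.9%, in either direction, and 18.2% were called higher. IGFBP3, among those 2, could be called higher only. IGFBP5 (ENSG00000115461, chromosome 2, 217536828 to 217560272, minus strand), which encodes a matrix-associated binding protein, stood at 149 and 156 CPM under DMSO and at 347.5 and 326 CPM with CBL0137. The treated level was 2.21 times the vehicle level (edgeR adjusted p = 1.4e-21), and the log2 fold change lay between 1.07 and 1.30 over the 14 alternatives.

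IGFBP3 (ENSG00000146674, chromosome 7, 45951844 to 45961473, minus strand), the main carrier of IGFs in blood, had 4 and 6 reads with DMSO but 80 and 54 with CBL0137. In CPM these were 0.211 and 0.322 against 3.64 and 2.44, and per kilobase the gene was the lowest of the 10 in both groups. The fitted rise was 11.2-fold (log2 fold change 3.48, SE 0.44, edgeR adjusted p = 6.0e-09), and 146 of the tested genes had a higher value. Leaving out a library moved the value between 3.16 and 3.79, and the difference in log2(FPKM + 1) was 0.93, a scale that draws low values toward 0.

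The other 3 binding protein genes were higher by less than the fold limit. IGFBP4 (ENSG00000141753, chromosome 17, 38599702 to 38613977, plus strand), an inhibitor of IGF action, went from 136 and 125 CPM to 185 and 192 CPM (log2 fold change 0.53, SE 0.06, edgeR adjusted p = 5.3e-11). IGFBP6 (ENSG00000167779, chromosome 12, 53491220 to 53496129, plus strand), which prefers IGF2 as its ligand, had 7.14 and 5.05 CPM with DMSO and 9.47 and 8.36 CPM with CBL0137 (0.55, SE 0.17, adjusted p = 0.0047). IGFBP2 (ENSG00000115457, chromosome 2, 217497551 to 217529159, plus strand), the neighbour of IGFBP5 on chromosome 2, had 167 and 149 CPM with DMSO and 183 and 181 CPM with CBL0137 (0.20, SE 0.06, adjusted p = 0.0015). IGFBP6 was at 0.80 without DMSO replicate 1 and 0.30 without DMSO replicate 2 (edgeR adjusted p = 0.167). Its adjusted p was also above 0.05 without CBL0137 replicate 1 (0.053), with no filter (0.112), by DESeq2 (0.115), on both FPKM scales by limma (0.120 and 0.109) and with the GC trend removed (0.403). IGFBP2 missed that limit without DMSO replicate 2 (0.11, adjusted p = 0.147), with no filter (0.0917) and with the GC trend removed (0.874). IGFBP4 and IGFBP6 passed the fold limit with upper-quartile factors (0.60 and 0.61) or library size alone (0.69 and 0.71). IGFBP4 was also called higher on both FPKM scales (0.61 and 0.63), and IGFBP6 without DMSO replicate 1 or without CBL0137 replicate 2 (0.63).

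Fold change followed GC content across the series, and these 3 transcripts are rich in GC. Tested genes were ranked by GC and cut into 5 bins of equal size. In the richest bin 1109 were higher and 291 lower, and in the poorest 309 were higher and 691 lower. The longest transcripts of IGFBP4 and IGFBP6 had 62.6% and 64.1% GC and lay in the richest bin, and that of IGFBP2 (57.1%) in the next. With the trend of fold change on GC removed, an alternative chosen after seeing the data, IGFBP2 was at 0.01, IGFBP4 at 0.19 and IGFBP6 at 0.17. IGFBP5 stayed at 1.07 and IGFBP3 at 3.42 in that fit, and IRS2, also in the richest bin at 58.7% GC, went from -1.16 to -1.39. IGF1, in the poorest bin at 36.6% GC, went from -0.91 to -0.76 and was still called.

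**Figure D2:**
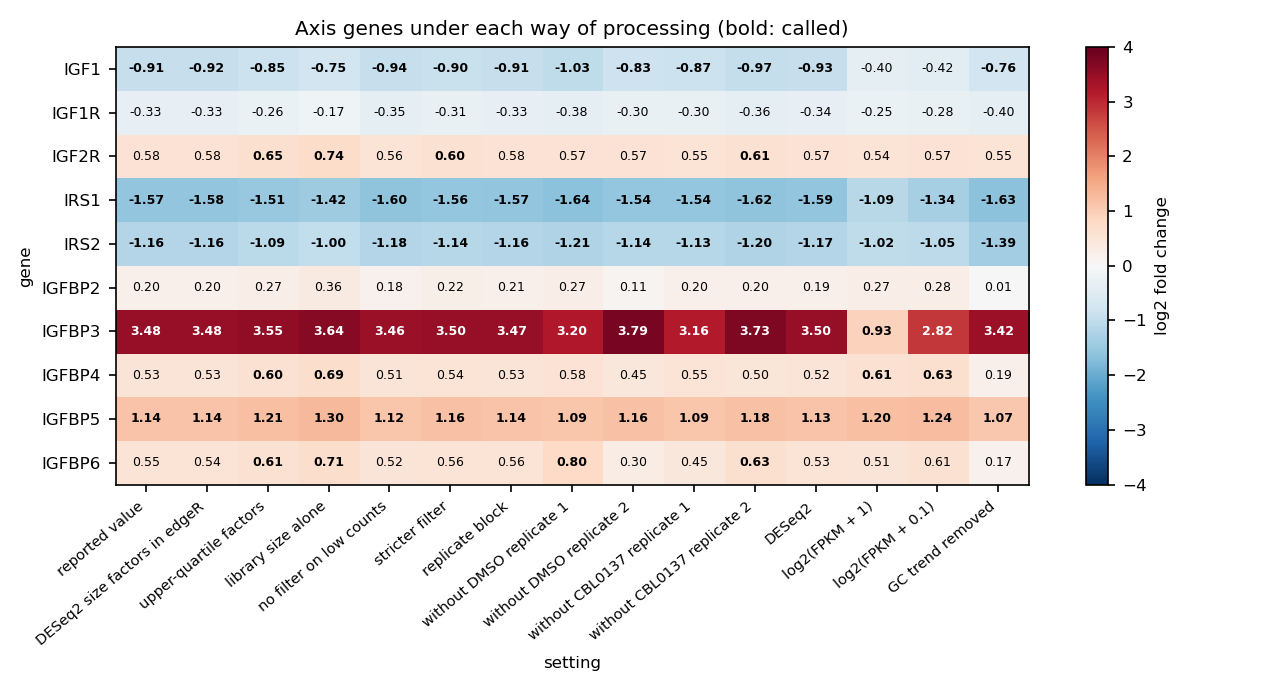
Log2 fold change (CBL0137 over DMSO) of each IGF axis gene, by colour and printed value, as reported and under each alternative, with called values in bold. IRS1, IRS2, IGFBP3 and IGFBP5 are bold in every column, IGF1 in those computed from counts, and IGFBP2, IGFBP4 and IGFBP6 lie between 0.01 and 0.19 with the GC trend removed.

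Levels of different genes were compared per length only. Per kilobase of annotated exon the order with DMSO was IRS2 (75.7 ± 2.45 CPM per kb, SD, n = 2), IGFBP4 (59.1 ± 3.72), IGFBP2 (33.3 ± 2.58), IGFBP5 (23.6 ± 0.741), IGF2R (15.8 ± 0.0311), IGF1R (9.52 ± 0.368), IRS1 (8.57 ± 0.451), IGFBP6 (4.53 ± 1.10), IGF1 (3.33 ± 0.326) and IGFBP3 (0.0584 ± 0.0172). No neighbours in that order overlapped. With CBL0137 IGFBP4 led at 85.4 ± 2.24 CPM per kb, followed by IGFBP5 at 52.1 ± 2.39, and IRS2 had moved from the first to the fourth place at 33.9 ± 1.01. The authors' FPKM values, whose gene lengths are not given, placed IGFBP2 first in both groups, at 74.4 ± 5.37 and 90.1 ± 0.573 FPKM, and IRS2 at rank 2 and then 5. On that scale IGF1, IGF2R and IGFBP5 overlapped their neighbours with DMSO, as did IGF1R and IRS1. With DMSO only IGF2R and IGFBP3 thus held the same rank on both measures. IGF1 stood at rank 9 per kilobase and at rank 4 by FPKM. The cause of these differences was not tested.

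The make-up of the binding protein transcripts was followed over IGFBP1 to IGFBP7. Their summed level was 125 and 116 CPM per kb with DMSO and 186 and 185 CPM per kb with CBL0137. The share of IGFBP5 was 18.4% and 20.7% with DMSO and 28.8% and 27.3% with CBL0137, and that of IGFBP2 went from 28.0% and 27.1% to 20.7% and 20.7%. IGFBP4 held 49.2% and 48.7% and then 45.0% and 47.1%. With FPKM the shares of IGFBP5 were 12.9% and 20.3% (means of DMSO and CBL0137) and those of IGFBP2 54.8% and 44.2%. The larger share of IGFBP5 and the smaller share of IGFBP2 with CBL0137 were thus found on both scales, while the leading gene was IGFBP4 per kilobase and IGFBP2 by FPKM. With 2 libraries against 2 an exact permutation test of a share cannot give a p below 0.33, so none was run.

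**Figure D3:**
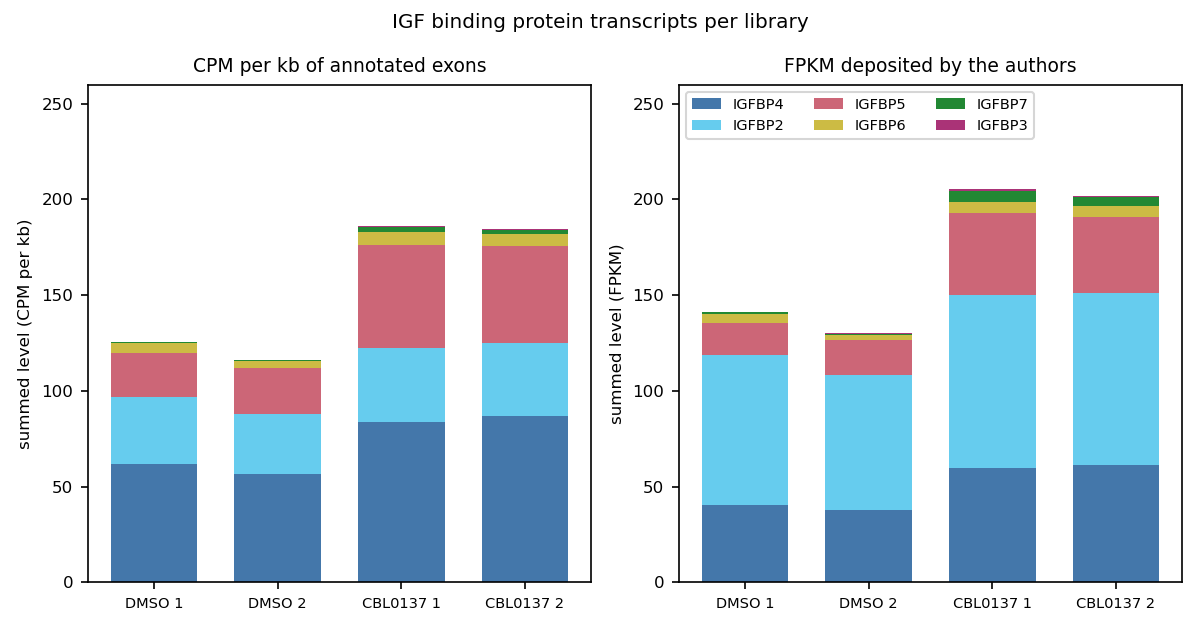
Summed level of the IGF binding protein transcripts in each library, stacked by gene, in CPM per kb of annotated exons (left) and in the authors' FPKM (right). The IGFBP5 segment is larger in both CBL0137 libraries on either scale, and IGFBP1, with 0 reads, has no segment.

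The rest of the pathway was described with a list of 47 genes, of which 40 were tested, 9 rose, 6 fell and 25 were not called. These counts sit near the background of 18.2% higher and 15.1% lower over all tested genes. The median log2 fold change was 0.04. Among other binding proteins IGFBP7, which binds IGFs weakly, had 8 and 8 reads with DMSO and 104 and 106 with CBL0137 (log2 fold change 3.46, SE 0.34, edgeR adjusted p = 1.1e-11). It overlaps exons of POLR2B and passed the filter through the CBL0137 libraries only, as did IGFBPL1, with 4 and 0 reads against 17 and 17. The call of IGFBPL1 was lost without a filter on low counts, with log2(FPKM + 1) and by DESeq2, and its value of 2.79 became 1.82 without DMSO replicate 2, where the call was lost too, and 7.02 without DMSO replicate 1. IGFBP1 had 0 reads in 4 of 4 libraries.

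The proteases that cleave binding proteins, and the inhibitors of these proteases, had 4 tested genes, of which 3 were lower and 0 higher, a count too small to set against the 15.1% lower over all tested genes. PAPPA, a metalloprotease that cleaves IGFBP4 and so frees IGFs, fell from 334 ± 10.9 to 211 ± 1.31 CPM (SD, n = 2; log2 fold change -0.66). It stayed under the fold limit with library size alone (-0.50) and with both FPKM scales (-0.56 and -0.58). The stanniocalcins STC1 and STC2 inhibit PAPPA. STC1 fell from 10.9 ± 1.44 to 1.93 ± 0.427 CPM (-2.49, SE 0.20) and STC2 from 234 ± 8.15 to 139 ± 9.14 CPM (-0.75, SE 0.06). Transcripts of PAPPA, STC1, STC2 and IGF1 were thus lower in the libraries in which those of IGFBP4, not called, were higher. Any gene lower with CBL0137 stands in this relation to any gene higher with it, and a link between them was not tested.

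Around the receptors, GRB10, an adaptor that dampens insulin and IGF1 receptor signalling, fell from 305 ± 6.81 to 142 ± 4.32 CPM (SD, n = 2; log2 fold change -1.11, SE 0.05, edgeR adjusted p = 2.4e-21). SHC1, which links receptors to RAS, rose by 0.64 (SE 0.06), and SH2B1, an adaptor of receptor kinases, by 0.62 (SE 0.06). Both were under the fold limit with the GC trend removed (0.46 and 0.33), and SH2B1 also without DMSO replicate 2 (0.54). INSRR, the insulin receptor-related gene, rose from 1.12 ± 0.138 to 2.95 ± 0.0480 CPM (1.39, SE 0.32). Its call was lost with log2(FPKM + 1), at 0.28. The IGF2 mRNA-binding protein genes IGF2BP1, IGF2BP2 and IGF2BP3 were not called, at -0.13, 0.16 and -0.03.

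In the PI3K, AKT and FOXO group 18 of 19 genes were tested, 4 rose and 2 fell. These counts sit near the 18.2% higher and 15.1% lower over all tested genes and say little about the group as such. INPPL1, which encodes a lipid phosphatase that lowers PI3K products, rose from 140 ± 7.52 to 314 ± 24.6 CPM (SD, n = 2; log2 fold change 1.17, SE 0.06, edgeR adjusted p = 4.8e-21). FOXO4 rose by 0.92 (SE 0.10) and FOXO1 by 0.67 (SE 0.08, and 0.52 without DMSO replicate 1). Both encode transcription factors that AKT keeps out of the nucleus, and FOXO3 was at 0.22. PIK3R1, the main regulatory subunit, fell by 0.66 (SE 0.05), and was under the fold limit with library size alone (-0.50), the GC trend removed (-0.55) and both FPKM scales (-0.52 and -0.55). Of the catalytic subunits PIK3CB fell by 0.60, a call lost in 7 of 14 alternatives, among them without DMSO replicate 2 (-0.53) and without CBL0137 replicate 1 (-0.57). PIK3CD rose by 0.71 and was under the limit with the GC trend removed (0.51) and both FPKM scales (0.37 and 0.50), while PIK3CA was at -0.32. AKT1 (-0.22), AKT2 (0.30) and PDPK1 (0.00099) were not called.

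**Figure D4:**
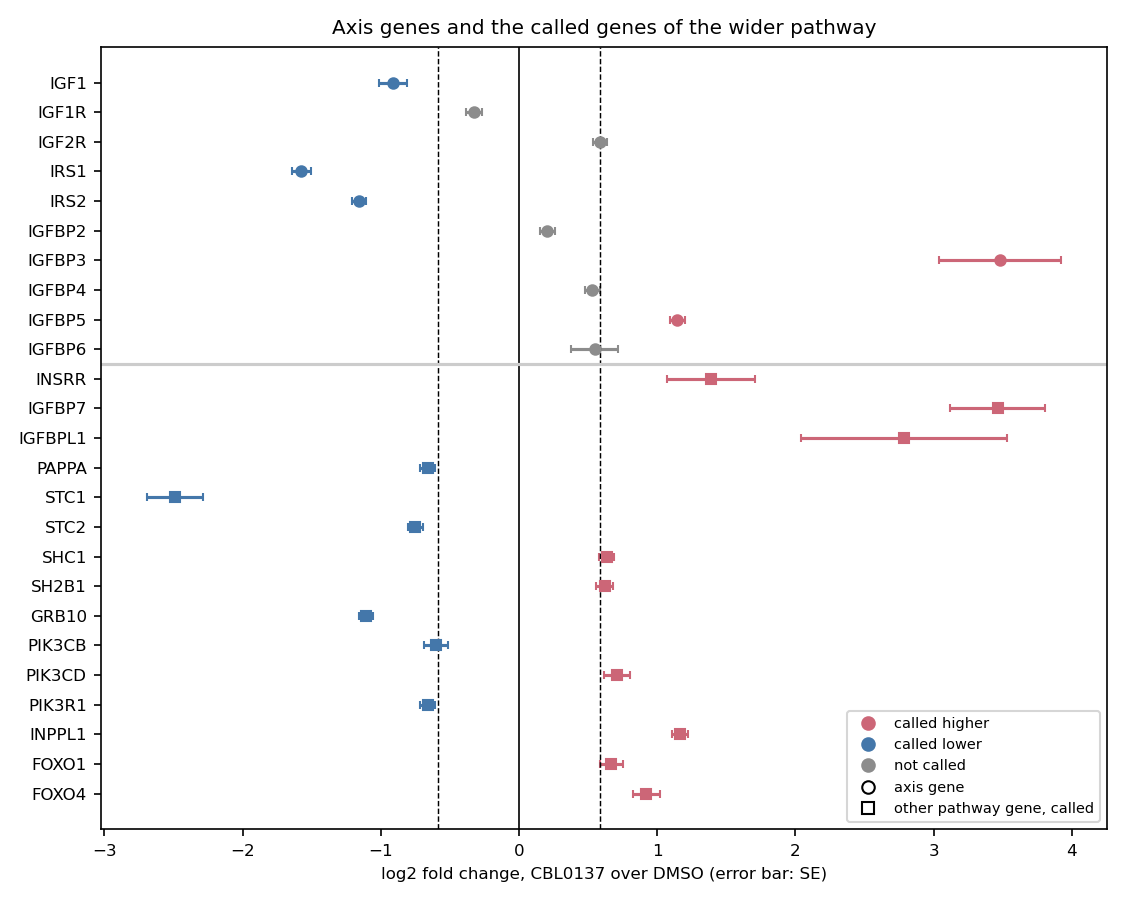
Log2 fold change (CBL0137 over DMSO) with its SE for the 10 IGF axis genes (circles) and the 15 called genes of the wider pathway list (squares). Dashed lines mark a fold of 1.5 in either direction: IRS1, IRS2 and IGF1 lie left of them, IGFBP3 and IGFBP5 right of them, and IGF2R sits on the right-hand line.

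Genes whose pattern over the 4 libraries was nearest to that of IRS1 and of IGFBP3 were found by Euclidean distance in log2 CPM centred on the DMSO mean, with the search limited to genes averaging 3 or more in log2 CPM. Nearest to IRS1 were NCAM2 (distance 0.07, log2 fold change -1.54), CTH, the gene of an enzyme of cysteine synthesis (0.08, -1.62), and XPOT, the gene of a tRNA exporter (0.09, -1.56). Nearest to IGFBP3 were SYT11 (0.35, 3.29), ABCA7 (0.50, 3.03) and CTSF, the gene of a lysosomal protease (0.53, 2.91). IGFBP3 itself lay below that limit on level, with 4 and 6 reads under DMSO. A prior count of 2 in the log2 CPM drew the fold of so few reads toward 0. Each distance rests on 4 libraries in 2 groups.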

How the data were processed

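RNA-seq of SKNMC cells gave 2 libraries for CBL0137 and 2 for DMSO, grouped by sample title. Per the series' design text, the authors used Trim Galore for adapters, HISAT2 for alignment (hg19) and HTSeq 0.11.1 for the deposited raw counts per gene. The authors also deposited FPKM values computed from read number, gene length and depth, by a tool they do not name. Annotation release and strand setting are likewise not stated. The submitters' processing notes also name mm10, with no role.

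The 6 entries that name no gene stayed out of library sizes and tests; the unassigned reads they hold were 25.0% to 26.2% of counted reads. Replicates differed by more than sampling noise (chi-square per degree of freedom 2.95 and 2.68), so each was kept. Counts were tested with edgeR 4.0.16 in R 4.3.3 (quasi-likelihood F test, TMM, filterByExpr, Benjamini-Hochberg adjustment over 17374 genes). SE is the absolute log2 fold change over the square root of F. The test was checked on simulated data in which far fewer genes changed than were called here, as many up as down. That check therefore does not cover a shift of many genes. FPKM was tested with limma 3.58.1 after adding 1 or 0.1, and DESeq2 1.42.0 was a further alternative. Gene positions and exon lengths came from GENCODE release 44 on GRCh37, the same build as hg19; promoters came from RefSeq on GRCh38.p14 and were used for sequence only.

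The axis genes and lists were chosen with earlier results of these data known. Named genes were the 10 axis genes, IGF2, INSR and IGFBP7, the 3 called genes with the smallest p in each role of the pathway list, and the 3 nearest patterns of the axis genes with the highest and lowest fold change. Other pathway genes were named after their values were seen.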

Additional observations from a re-analysis of the deposited data

Results flagged for a closer look

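PIK3R2, a regulatory subunit gene of PI3K in the pathway list, had at most 1 read in any library in the counts but a mean of 9.18 FPKM over the 4 libraries in the authors' FPKM values. It was singled out because the FPKM values show a signal where the counts do not. Its exons overlap those of ENSG00000268173, a gene on the same strand, which had 0 reads in 4 of 4 libraries.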

How the results depend on the processing

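The reported counts were 2 higher and 3 lower among the 10 IGF axis genes, and 2 were lower on both FPKM scales, where IGF1 was not called. With upper-quartile factors or library size alone 5 were called higher, and with no fold limit 6. Leaving out a library gave 2 to 4 higher (4 without CBL0137 replicate 2, which added IGF2R and IGFBP6) and 3 to 3 lower. Of 140 combinations of a gene and an alternative, 126 kept direction and call, 12 gained a call, 2 lost it and 0 changed sign. The cause of these changes was not tested. In the pathway list, with 9 higher and 6 lower, 3 were lower with library size alone, with log2(FPKM + 1) and with log2(FPKM + 0.1), and 15 were higher and 13 lower with no fold limit. Leaving out a library gave 7 to 9 higher and 6 to 6 lower. INSR reversed with library size alone, to 0.012, a scaling that moved the median of tested genes by 0.16. Over all genes (3166 higher, 2632 lower) log2(FPKM + 1) gave 1860 and 1363, no fold limit 5347 and 5375, and leaving out a library 2699 to 2974 and 2418 to 2655. With FPKM in place of CPM per kb, the shares of the binding protein pool were 54.8% and 44.2% for IGFBP2 (27.5% and 20.7% per kb), 28.9% and 29.7% for IGFBP4 (48.9% and 46.0%) and 12.9% and 20.3% for IGFBP5 (19.5% and 28.0%), for DMSO and CBL0137. Single libraries gave 27.1% to 28.0% and 20.7% to 20.7% for IGFBP2, 48.7% to 49.2% and 45.0% to 47.1% for IGFBP4, and 18.4% to 20.7% and 27.3% to 28.8% for IGFBP5. With the replicate number as a block 2 of the axis genes were higher and 3 lower, and 3129 genes were higher and 2612 lower over all genes. Deviations of same-numbered libraries had a correlation of 0.02, and the labels do not tie the numbers to a shared culture. Depth limits IGFBP3, with 4 and 6 reads under DMSO.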
